A study of Sus scrofa with 4 samples.

Results

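The 9 genes of the epidermal lipid barrier followed here stand among 29837 named genes of the count table: ALOX12B, ALOXE3, ABCA12, CERS3, ELOVL4, UGCG, SMPD1, SPTLC2 and PNPLA1. They were taken by gene name from a list of enzymes and transporters that make, move and oxidise the ceramides of the skin barrier, and all 9 had a row in the table and passed the filter on low counts. RNA was sequenced from cells sorted out of the epidermis and hair of 2 juvenile LGR5-H2B-GFP pigs, called 88R and 95R. In these pigs H2B-GFP, a nuclear green fluorescent protein joined to a histone, was placed by CRISPR/Cas9 under the LGR5 promoter in a single LGR5 allele, and clonal fibroblast colonies with this insertion were used for nuclear transfer. LGR5 is a receptor that strengthens WNT signalling and marks hair follicle stem cells. Each pig gave 1 library of GFP-bright cells (LGR5-high) and 1 library of cells without GFP (LGR5-negative), so that both populations carried the same allele and came from the same skin, and GFP-dim cells were not sequenced here. H2B-GFP is a stable label that is diluted with cell division. Whether the 2 pigs were founders or their offspring is not given in the sources used here.

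The outermost layer of the epidermis holds water with sheets of ceramides, cholesterol and free fatty acids that fill the space between dead, flattened cells. Keratinocytes build these ceramides as they differentiate: a sphingoid base is joined to a very long fatty acid, the end of that fatty acid is esterified with linoleic acid, a glucose is added for storage in lamellar granules, and hydrolases outside the cell remove the head group again. Lipoxygenases then oxidise the linoleate so that the lipid can be attached to the protein envelope of the cell. Inherited loss of several of these genes causes ichthyosis, a scaling skin disease.

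The libraries held between 30696803 and 32463362 counts on named genes. Levels are CPM, counts scaled to a common library total, after scaling by the trimmed mean of M-values (TMM), and a gene at the floor of 3 counts had between 0.0873 and 0.105 CPM, so that every member was far above the floor. Of the suprabasal markers KRT1, KRT10, KRTDAP, DSC1, DSG1, SBSN, IVL and LOR, 6 of 8 were lower in LGR5-high by edgeR and 0 higher, also at an unadjusted p under 0.05 and by DESeq2 and limma-voom. Their summed level was 6060 to 6649 CPM in LGR5-high and 57480 to 66570 CPM in LGR5-negative. The marker counts of this paragraph stand beside 22% lower and 22.7% higher among all tested genes. FLG, KRT14, KRT71, KRT73, SCGB1D4 and CD1A were also on the marker lists but had no row under these symbols. Of 7 outer root sheath and bulge markers, 6 were higher, with sums of 1714 to 1760 CPM against 133 to 167 CPM. LGR5 was among the 6, and its difference was set by the sort, which used GFP under the LGR5 promoter. Basal markers summed to 29640 to 32900 CPM in LGR5-high and to 34630 to 37030 CPM in LGR5-negative, mostly from KRT5. Of the 6, 3 were lower, with log2 fold changes of -0.94 for ITGA6, -0.47 for COL17A1 and -0.38 for ITGB4. KRT5 (-0.18), TP63 (-0.17) and KRT15 (0.76) were not called. With the pig as a replicate block, KRT15 was higher (0.73, edgeR adjusted p = 2.13e-06). Melanocyte markers summed to 32.2 to 36.7 CPM in LGR5-high and to 61.1 and 233 CPM in LGR5-negative, and Langerhans and immune markers to 6.02 to 7.74 CPM against 86.4 to 126 CPM. Fibroblast and endothelial markers summed to 88.3 and 118 CPM against 182 and 200.5 CPM, mostly from DCN, and 5 of 6 were lower, with log2 fold changes from -0.82 for DCN to -4.27 for CDH5, which had 1 count in each LGR5-high library. Inner root sheath markers summed to 1156 and 1445 CPM against 573 and 619 CPM. The LGR5-negative sum was mostly GATA3, which was lower (-0.90), whereas the other 4 were higher, with log2 fold changes of 2.70 for KRT28 to 4.00 for TCHH. Sebaceous gland markers summed to 5.96 and 6.72 CPM against 3.19 and 3.28 CPM, with AWAT1 at 0 in every library and 1 of 4 tested higher, SOAT1 (2.24, from 124 and 88 counts against 12 and 27). The genes listed as sweat gland markers summed to 108.5 and 131 CPM against at most 9.60 CPM, mostly from KRT8 and KRT19, and 4 of 5 were higher. KRT18 (-0.59) was not called, and AQP5 had 13 and 22 counts in LGR5-high and 2 in each LGR5-negative library. By antibody staining, the paper found AQP5 not specific in skin and partly overlapping with LGR5-H2BGFP cells. Sweat gland cells are therefore not read from this list. The part of these cell types in the results below was not tested.

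The barrier lipid genes were mostly lower in LGR5-high. With p-values from the quasi-likelihood test of edgeR, adjusted after Benjamini and Hochberg over all 15980 tested genes, 7 of the 9 members were lower at an adjusted p-value under 0.05, 0 were higher and 2, ALOX12B and SMPD1, were not called. At an unadjusted p under 0.05, 8 were lower and 0 higher, and DESeq2 and limma-voom each called 8 lower and 0 higher after adjustment. Among all tested genes 22% were lower and 22.7% were higher. The log2 fold changes of LGR5-high over LGR5-negative ran from -2.59 for ABCA12 to 0.21 for SMPD1, with a median of -1.12, beside a median of 0.02 over all tested genes. In 8 members both LGR5-high libraries lay below both LGR5-negative libraries, which held for 37.4% of all tested genes, and in 1, SMPD1, both lay above, which held for 39.2%. Summed over the 9 genes, LGR5-high had 160.3 CPM in 88R and 162 CPM in 95R, and LGR5-negative had 424 and 409 CPM in the same order. As bulk RNA was measured, fewer cells of a type and less RNA per cell cannot be told apart.

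**Figure D1:**
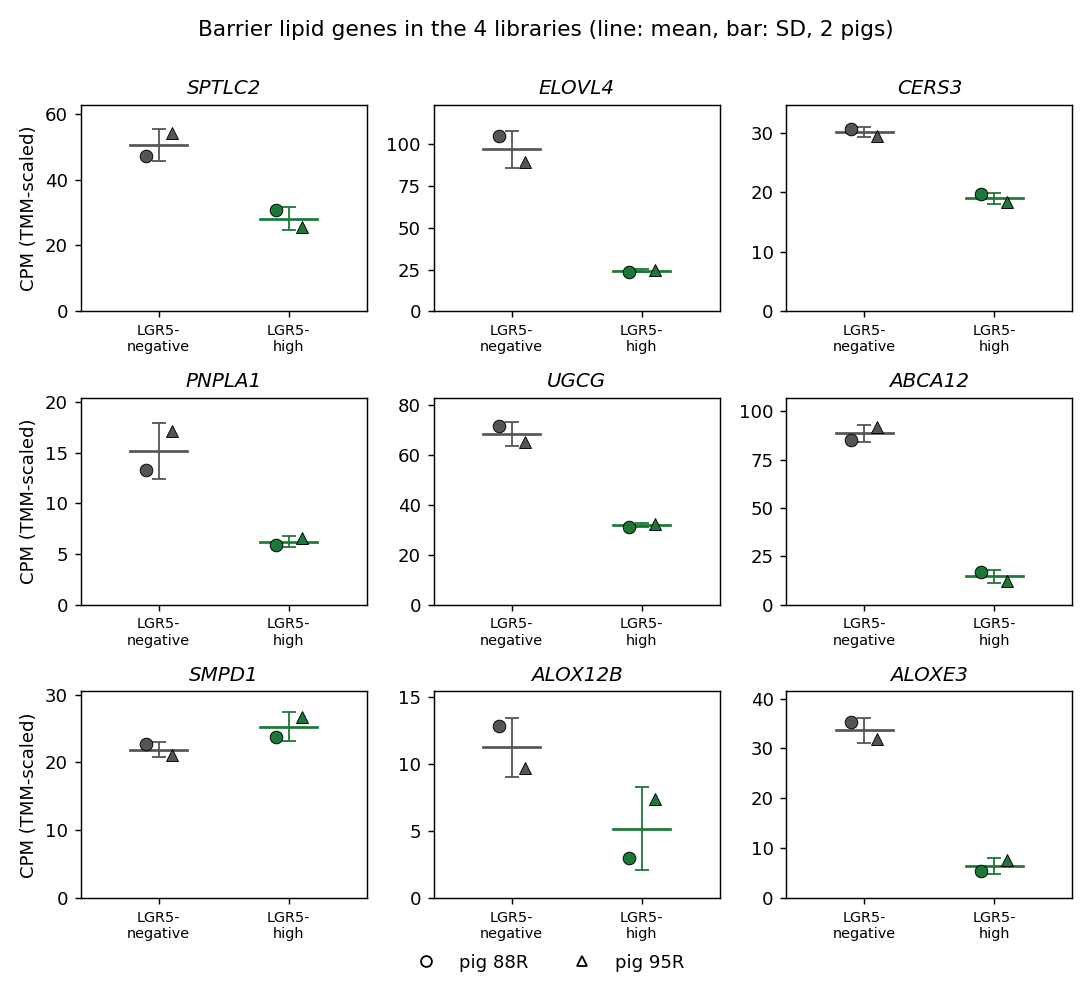
Level of each member in TMM-scaled CPM (vertical axes from 0, each panel with its own scale) in LGR5-negative (grey) and LGR5-high (green), with pig 88R as circles, pig 95R as triangles, a line at the mean and a bar for the SD over the 2 pigs. In 8 panels both green points lie below both grey points, and in the SMPD1 panel they lie above.

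Ceramide synthesis starts with serine palmitoyltransferase, of which SPTLC2 is a catalytic subunit. SPTLC2 had 30.7 and 25.6 CPM in LGR5-high cells of 88R and 95R, the order kept below, and 47.0 and 54.0 CPM in LGR5-negative cells. The populations did not overlap, and the pig with the lower value in LGR5-high had the higher value in LGR5-negative. The log2 fold change was -0.84 (SE 0.132, edgeR adjusted p = 0.00437) and the single pigs gave -0.61 for 88R and -1.07 for 95R.

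ELOVL4, the elongase that makes the ultra-long fatty acids of skin ceramides, had 23.7 and 24.9 CPM in LGR5-high and 105 and 89.2 CPM in LGR5-negative. Both LGR5-high libraries lay far below both LGR5-negative libraries. The LGR5-high libraries differed little from each other, and the 95% counting interval of the ratio between the pigs, 0.955 to 1.16, includes equality. In LGR5-negative the 95R to 88R ratio was 0.850, with a counting interval of 0.807 to 0.895 that does not include equality. The log2 fold change of ELOVL4 was -2.00 (SE 0.113, edgeR adjusted p = 1.52e-04), a level 3.99-fold higher in LGR5-negative.

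CERS3, the ceramide synthase that uses these ultra-long fatty acids, had 19.7 and 18.3 CPM in LGR5-high and 30.7 and 29.6 CPM in LGR5-negative. The 2 pigs were close to each other in both populations, with ratios of 0.931 and 0.962 whose counting intervals (0.835 to 1.04 and 0.877 to 1.06) include equality. Of the 7 members called lower, CERS3 had the smallest estimated difference, with a log2 fold change of -0.67 (SE 0.109, edgeR adjusted p = 0.0051), and 1.59-fold more in LGR5-negative.

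PNPLA1, which transfers linoleate onto the omega-hydroxyl group to make acylceramide, had 5.88 and 6.60 CPM in LGR5-high and 13.3 and 17.1 CPM in LGR5-negative. The populations were apart, and the LGR5-negative library of pig 95R was the highest of the 4. The log2 fold change was -1.29 (SE 0.186, edgeR adjusted p = 0.00324).

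UGCG, the glucosyltransferase that turns ceramide into glucosylceramide for the lamellar granule, had 31.2 and 32.5 CPM in LGR5-high and 71.7 and 65.0 CPM in LGR5-negative. The difference was close in size in each pig, at 2.30-fold for 88R (counting interval 2.13 to 2.47) and with an interval of 1.86 to 2.16 for 95R. The fitted value was -1.10 (SE 0.0964, edgeR adjusted p = 5.48e-04).

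ABCA12, the transporter that loads glucosylceramide into lamellar granules, had 17.0 and 12.4 CPM in LGR5-high and 85.3 and 91.6 CPM in LGR5-negative. It had the largest estimated difference of the 9 members, with 6.01-fold more in LGR5-negative and a log2 fold change of -2.59 (SE 0.164, edgeR adjusted p = 2.02e-04). In the order of log2 fold changes from the lowest, it stood at rank 319 of 15980. Within LGR5-high the pigs differed by more than counting error, with a 95R to 88R ratio of 0.732 (counting interval 0.646 to 0.831), and the fold was 5.02 for 88R and 7.37 for 95R.

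SMPD1, the acid sphingomyelinase, releases ceramide from sphingomyelin outside the cell as well as in lysosomes. SMPD1 had 23.8 and 26.8 CPM in LGR5-high and 22.7 and 21.1 CPM in LGR5-negative. Both LGR5-high libraries lay slightly above both LGR5-negative libraries, by a margin of 23.8 against 22.7 CPM at the nearest. The log2 fold change of 0.21 (SE 0.12, edgeR adjusted p = 0.208) was not called. Scaled by library size alone it was 0.43 and called higher (edgeR adjusted p = 0.0276), a scaling under which the median of all tested genes also moved, to 0.24.

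ALOXE3 and ALOX12B, the epidermal lipoxygenases that act in sequence on the linoleate of acylceramide, lie next to each other in the RefSeq annotation of Sscrofa11.1 and do not overlap there. ALOXE3 had 5.38 and 7.63 CPM in LGR5-high and 35.4 and 31.9 CPM in LGR5-negative. Both pigs showed a wide gap between the populations, of 6.57-fold for 88R (counting interval 5.62 to 7.69) and 4.18-fold for 95R (3.64 to 4.80). The log2 fold change was -2.37 (SE 0.194, edgeR adjusted p = 4.42e-04).

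ALOX12B had 2.97 and 7.36 CPM in LGR5-high and 12.8 and 9.66 CPM in LGR5-negative, from 102, 243, 364 and 292 counts in the same order. The gap was thus wide in pig 88R and narrow in pig 95R: LGR5-negative was 4.31-fold higher for 88R (counting interval 3.46 to 5.36) and 1.31-fold for 95R (1.11 to 1.56). The LGR5-high libraries differed between the pigs by a ratio of 2.48 (counting interval 1.97 to 3.12), the largest such ratio among the members. The log2 fold change of -1.12 (SE 0.423, edgeR adjusted p = 0.0781) was not called. With the pig as a replicate block it was -1.20 and called lower (edgeR adjusted p = 0.00122), so that 8 of 9 members were lower and 0 higher, beside 27.2% and 28.5% of all tested genes under the block. The log2 fold change was -1.91 without the LGR5-high library of pig 95R and -0.62 without that of pig 88R. Without the LGR5-negative library of 88R it was -0.91, and without that of 95R -1.32.

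**Figure D2:**
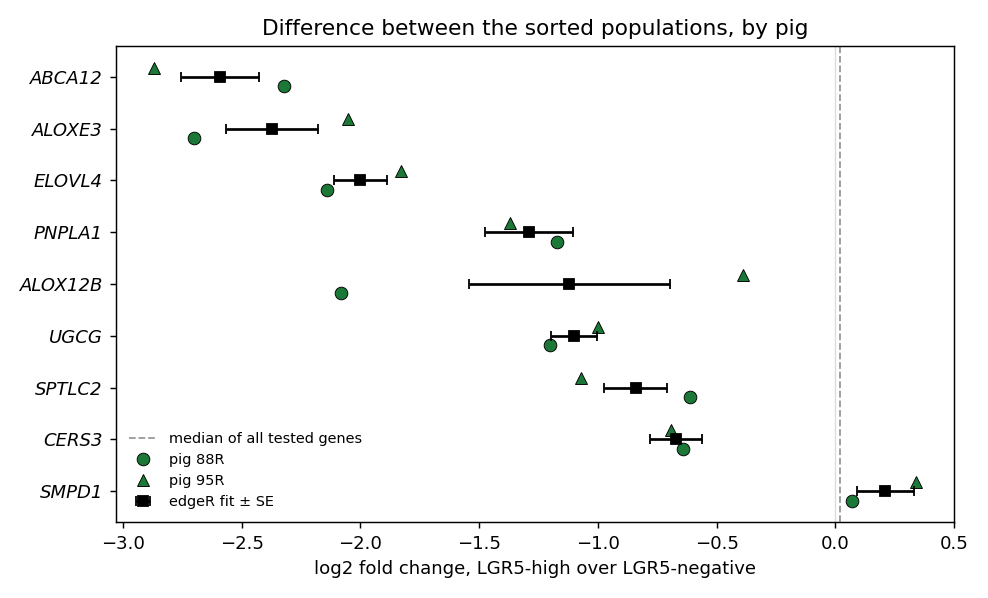
Log2 fold change of LGR5-high over LGR5-negative (horizontal axis) for each member in pig 88R (circles) and pig 95R (triangles), with the edgeR estimate and its SE (squares with bars) and a dashed line at the median of all tested genes, 0.02. ABCA12, ALOXE3 and ELOVL4 lie at or below -1.83 in each pig, ALOX12B spreads from -2.08 to -0.39, and SMPD1 is the only member on the positive side.

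Ratios between members within a library do not depend on how libraries are scaled to each other. The lipoxygenase pair had an ALOXE3 to ALOX12B ratio of raw counts of 1.81 and 1.04 in LGR5-high, and of 2.77 and 3.30 in LGR5-negative. The ABCA12 to CERS3 ratio was 0.864 and 0.679 in LGR5-high and 2.78 and 3.10 in LGR5-negative. These counts are not per transcript length, so only the shift of a ratio between libraries is read, not its size. ELOVL4 and CERS3, which act in succession, had ratios of 1.21 and 1.36 in LGR5-high and 3.42 and 3.02 in LGR5-negative. UGCG and SMPD1, which add and release a head group on different ceramide precursors, had ratios of 1.31 and 1.21 against 3.16 and 3.08. None of the 4 ratios overlapped between the populations. The share of all gene pairs without overlap was not computed, so this is not read as a result about the members. In each pair the 2 members had unequal log2 fold changes, which the shifts restate. The smallest p that a 2-sided exact permutation test of 2 against 2 libraries can give is 0.333, so no test of a ratio was made.

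**Figure D3:**
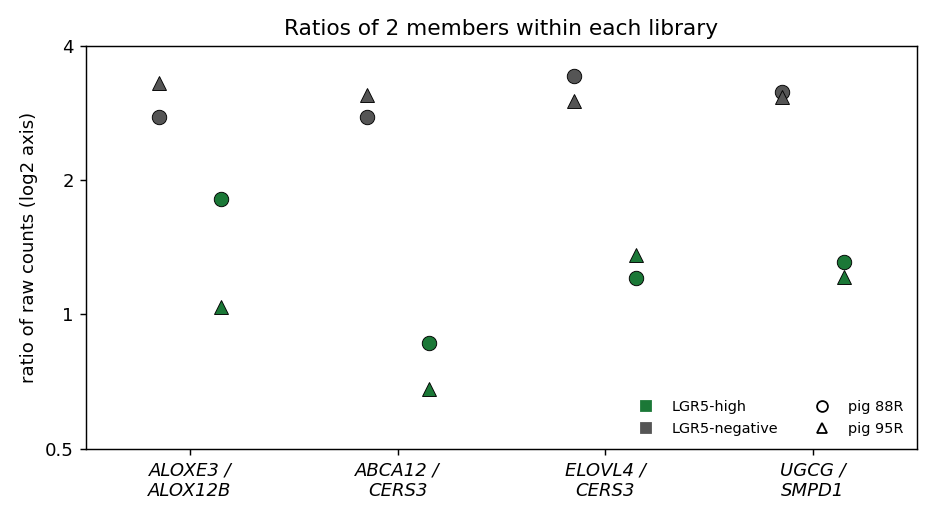
Ratio of raw counts of 2 members in each library (vertical axis, log2 scale) for 4 pairs, with LGR5-negative in grey, LGR5-high in green, pig 88R as circles and pig 95R as triangles. The LGR5-negative ratios lie between 2.77 and 3.42, and the LGR5-high ratios between 0.679 and 1.81.

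The members were set beside the suprabasal keratin KRT10, whose log2 fold change was -3.44. Per 1000 KRT10 counts, ABCA12 had 6.13 and 4.87 counts in LGR5-high and 2.75 and 3.45 in LGR5-negative. CERS3 had 7.10 and 7.16 against 0.989 and 1.11, and ALOXE3 1.94 and 2.98 against 1.14 and 1.20. Each member was thus higher relative to KRT10 in LGR5-high, since every member's log2 fold change was above that of KRT10. Only 0.67% of all tested genes had a log2 fold change below that of KRT10. Nearly every tested gene is thus higher relative to KRT10, and nothing particular to the members is read from it. Of the suprabasal list, IVL and LOR, genes of the protein envelope, were not called. In LGR5-high of 88R and 95R followed by LGR5-negative, IVL had 822, 1341, 1424 and 667 counts and LOR 84, 42, 46 and 49.

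The rest of the pathway was read from 8 lists of sphingolipid and barrier lipid genes. Without the members, the lists had 59 genes, of which 55 had a row under the symbol searched and 53 were tested. CYP4F22, LIPN, LIPK and ALOX15B had no row under these symbols, and ELOVL2 and ELOVL3 did not pass the filter. By edgeR's quasi-likelihood test 26 of the 53 (49.1%) were lower and 9 (17.0%) higher, beside 22% and 22.7% of all tested genes. The counts of each list below stand beside the same 2 shares of all tested genes. The median log2 fold change was -0.40, beside 0.02 over all tested genes. The medians of the single pigs 88R and 95R were -0.35 and -0.42.

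In sphingoid base synthesis, 3 of the 8 genes beside SPTLC2 were lower (37.5%) and 2 higher (25%). The share higher was near that of all tested genes, so nothing is read from these counts. KDSR, the reductase of the step after serine palmitoyltransferase, had a log2 fold change of -1.07 (SE 0.117, edgeR adjusted p = 0.00117), and SPTLC3, an alternative catalytic subunit, one of -1.04 (edgeR adjusted p = 4.42e-04). SPTSSA, a small activating subunit, was higher (0.44), as was ORMDL3, which restrains the enzyme (0.73), while ORMDL2 was lower (-0.49). The small subunit gene SPTSSB had the value nearest to 0 (0.09) and was not called.

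Of the 7 ceramide synthase and desaturase genes beside CERS3, 5 were lower and 1 higher. DEGS2, which makes the phytoceramides of skin, had a log2 fold change of -1.87 (SE 0.258, edgeR adjusted p = 0.00274), from 177 and 141 counts in LGR5-high and 600 and 406 in LGR5-negative. DEGS1, which introduces the double bond of the sphingosine base, had -1.19, CERS6 -0.95, CERS4 -0.73 and CERS2 -0.40. CERS1 was higher (1.33, edgeR adjusted p = 0.0207) at low counts, with 63 and 84 in LGR5-high and 26 and 25 in LGR5-negative, and was not called by DESeq2 with the replicate block (adjusted p = 0.119). CERS5 had 0.19 and was not called.

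Of the 9 elongation genes tested beside ELOVL4, 4 were lower and 1 higher. ELOVL1, an elongase of saturated very long chains, had -0.89, HACD1 -0.76, HSD17B12, the ketoacyl reductase of the elongation cycle, -0.74, and ELOVL7 -0.48. ELOVL6, which elongates palmitate, went the other way with a log2 fold change of 1.31 (SE 0.118, edgeR adjusted p = 6.07e-04), from 1513 and 1703 counts in LGR5-high and 541 and 590 in LGR5-negative. The elongases thus did not share a direction. HACD2, at 0.10, was not called.

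Beside PNPLA1, 3 of 5 genes of fatty acid activation and acylceramide assembly were lower and 1 higher. ABHD5, the coactivator of PNPLA1, had a log2 fold change of -2.07 (SE 0.117, edgeR adjusted p = 1.54e-04), and NIPAL4, another ichthyosis gene, one of -2.28 (SE 0.128, edgeR adjusted p = 1.51e-04). ACSL1, an acyl-CoA synthetase, had -1.28. FA2H, which adds an alpha-hydroxyl group to fatty acids, was higher, with 132 and 122 counts in LGR5-high, 14 and 17 in LGR5-negative and a log2 fold change of 2.83 (SE 0.287, edgeR adjusted p = 9.11e-04). SLC27A4, a fatty acid transport protein, had -0.40 and was not called (edgeR adjusted p = 0.0683), but was lower with the pig as a replicate block (edgeR adjusted p = 0.00876) and not in DESeq2 with the block (adjusted p = 0.0642).

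Among 5 genes of head group transfer and transport beside UGCG and ABCA12, 2 were lower and 1 higher. The sphingomyelin synthase genes had opposite directions, with -1.06 for SGMS2 and 0.56 for SGMS1. COL4A3BP, which encodes the ceramide transfer protein, had -1.12. The sterol transporter genes ABCA1 and ABCG1 were not called, at -0.35 and -0.02.

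The extracellular hydrolases and cholesterol sulfate enzymes had 2 of 6 tested genes higher and 0 lower by edgeR beside SMPD1, where 22.7% and 22% of all tested genes were called. At an unadjusted p under 0.05 and by DESeq2 and limma-voom 0 were lower too. With so few genes, nothing is read from these counts. The median log2 fold change was 0.63. PLA2G2F, a secreted phospholipase, had 567 and 933 counts in LGR5-high and 177 and 83 in LGR5-negative, and a log2 fold change of 2.32 (SE 0.435, edgeR adjusted p = 0.00819) (1.40 for 88R and 3.33 for 95R). PSAP, the precursor of the saposins that assist these hydrolases, had 0.15 and was not called. With the replicate block 4 of the 6 were higher, ASAH1 and STS among them.

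All 4 tested genes of the lipoxygenase list beside ALOX12B and ALOXE3 were lower. ALOX12, the platelet-type lipoxygenase, had a log2 fold change of -2.50 (SE 0.119, edgeR adjusted p = 9.72e-05), from 413 and 345 counts in LGR5-high and 1886 and 1853 in LGR5-negative. EPHX3, an epoxide hydrolase that acts on lipoxygenase products, had -1.78 (SE 0.159), and SDR9C7, the dehydrogenase that oxidises them further, -1.35 (SE 0.271). EPHX2 was the nearest to 0, at -0.36 (edgeR adjusted p = 0.0369), and was not called with library size only (adjusted p = 0.324), with upper quartile scaling (0.1001) or with at least 10 counts in every library (0.0509).

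Of 9 genes of ceramide breakdown and sphingosine phosphate, 5 were lower and 1 higher. ACER1, the alkaline ceramidase of differentiated epidermis, had a log2 fold change of -1.82 (SE 0.2, edgeR adjusted p = 0.0012) and ACER2 one of -1.11, whereas ACER3 was higher (0.56). SGPP2, a sphingosine phosphate phosphatase, had -1.60, SGPL1, the lyase, -0.56 and SGPP1 -0.43. SPHK1 had 0.11 and was not called.

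Some calls in these lists changed when 1 library was left out. Without the LGR5-high library of 88R, the edgeR adjusted p rose to 0.0717 for SPTSSA, 0.0502 for CERS1, 0.0850 for HACD1, 0.151 for EPHX2 and 0.118 for ACER3. Without the LGR5-negative library of 88R it was 0.0604 for SPTSSA, 0.0951 for EPHX2, 0.0551 for SGPL1 and 0.0501 for SGPP1, and ABCA1 was called lower (0.00642). Leaving out LGR5-high of 95R gave an edgeR adjusted p of 0.140 for CERS1, 0.114 for CERS2, 0.0502 for ELOVL7, 0.0791 for ACER2, 0.0651 for SGPL1 and 0.0807 for SGPP1. Leaving out LGR5-negative of 95R gave 0.0651 for CERS1, 0.0823 for CERS2, 0.0614 for HACD1, 0.0791 for EPHX2 and 0.0829 for ACER3, and SLC27A4 was called lower (edgeR adjusted p = 0.0119). With library size only, ORMDL2, CERS2, HACD1, EPHX2, SGPL1 and SGPP1 were not called lower, and CERS5, HACD2 and PSAP were called higher.

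**Figure D4:**
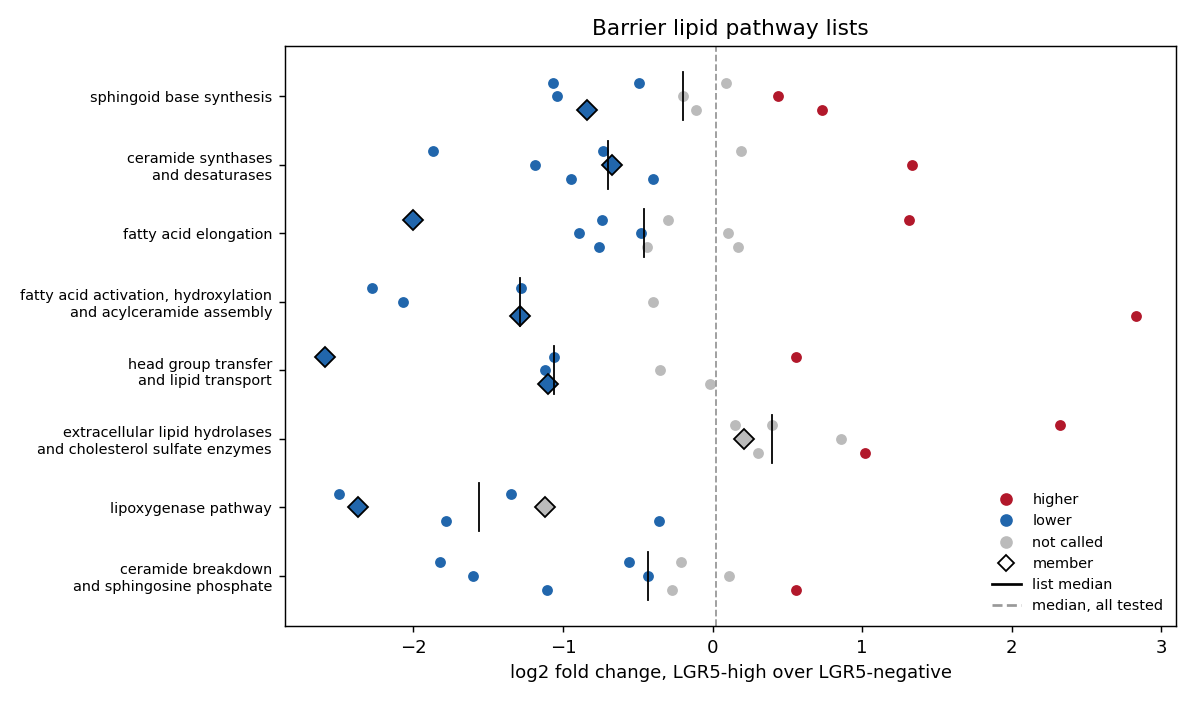
Log2 fold change of LGR5-high over LGR5-negative (horizontal axis) of each tested gene of the 8 lists, members included as diamonds and others as dots, in red where higher, blue where lower and grey where not called by edgeR, with a bar at each list's median and a dashed line at the median of all tested genes. Medians run from -1.57 for the lipoxygenase list to 0.40 for the extracellular hydrolases, the only list with no gene in blue. That list had 7 tested genes, 2 higher (28.6%) and 0 lower, beside 22.7% and 22% of all tested genes.

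For each member the tested gene with the most similar profile was found by the Euclidean distance between log2 CPM values over the 4 libraries, each gene centred on its own mean. With so few libraries this is a description only. The nearest gene was SH3BP5 for SPTLC2 (distance 0.0425), DLL1 for ELOVL4 (0.0643), TMEM64 for CERS3 (0.016), FREM2 for PNPLA1 (0.054), NPAS2 for UGCG (0.0462), EBF1 for ABCA12 (0.055), SHISA7 for SMPD1 (0.0218) and WNT4 for ALOXE3 (0.0755). DLL1, a Notch ligand gene, had 849 and 823 counts in LGR5-high and 3171 and 2756 in LGR5-negative, close to the 815, 824, 2989 and 2694 counts of ELOVL4. EBF1 and SHISA7 had at most 24 counts in any library. The distances used a prior count of 2, and in the fit EBF1 had a log2 fold change of -3.59 beside -2.59 for ABCA12. ALOX12B stood further from its nearest gene than the other members, at 0.287 from SYT7, which had 223 and 544 counts in LGR5-high and 642 and 657 in LGR5-negative. SYT7 thus shared with ALOX12B the higher value in the LGR5-high library of pig 95R.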

How the data were processed

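RNA of cells sorted from 2 pigs was sequenced after poly(A) selection, each pig giving both populations. The values deposited by the authors are raw counts by gene symbol, not normalized. The submitters' processing notes name Trimmomatic 0.36, STAR 2.5.2b, featureCounts and Subread 1.5.2. The genome build, annotation and strand setting are not given in the sources used here. Between 0.36% and 0.626% of counts in a library had no gene name and were left out. All 29837 named genes matched a RefSeq symbol of Sscrofa11.1, used for names and neighbours only, and no sequences or transcript lengths were used.

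Counts were analysed in R 4.3.3 with edgeR 4.0.16. The function filterByExpr (minimum count 10, minimum total count 15) kept 15980 genes, TMM set the scaling, and the quasi-likelihood model had population as its sole term. The tests were 2-sided, and genes were called at a Benjamini-Hochberg adjusted p under 0.05. Standard errors were taken from the fold change and its F statistic, and fold changes of single pigs used a prior count of 2. The p-values measure the spread between libraries of 2 pigs. Counting intervals (95%, normal approximation on the log ratio of counts) and the floor of 3 counts cover counting error alone, as PCR duplicates are not separate molecules. The libraries are paired by pig, since the sample titles name the same animal for both populations. Across genes, the deviations of 1 pig's libraries from their population means correlated at 0.37. The common dispersion fell from 0.0223 to 0.0084 when the pig was added as a replicate block. Libraries of a population differed by more than counting noise (chi-square per degree of freedom 21.7 and 23.7).

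The members and lists were chosen with earlier results of these data known. Of the pathway lists, any called gene could be named, the largest and the smallest absolute log2 fold change of each list and the untested genes always were, and for each member so was the gene nearest in profile. The values of 1 called gene of the lists are not reported here. ABCA1, IVL, LOR, ASAH1, STS, the single cell type markers with values and the genomic neighbours were named after their values were seen. The alternatives were DESeq2 size factors, library size or upper quartile scaling, a filter of at least 1 count in all or of 10 in every library, the replicate block, DESeq2 1.42.0, limma-voom (limma 3.58.1), Student's test, which the study names, on log2(CPM + 1), a scale chosen here, and leaving out each library. Bonferroni adjustment and DESeq2 with the replicate block were added after seeing the data. The scripts for the tests were tested on simulated data. Plots used matplotlib 3.10.9.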

Additional observations from a re-analysis of the deposited data

Results flagged for a closer look

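The sterol transporters ABCA1 and ABCG1 and the envelope genes IVL and LOR differed in direction between the pigs. Each pig had 1 library per population, and the difference was not tested. The log2 fold change of LGR5-high over LGR5-negative was 0.12 for 88R and -0.66 for 95R in ABCA1, and 0.43 and -0.35 in ABCG1. It was -1.06 and 0.88 in IVL, and 0.58 and -0.34 in LOR. All 9 members had the same direction in both pigs. For SMPD1 in 88R, though, the counting interval of LGR5-negative over LGR5-high, 0.860 to 1.06, includes equality. The share of all tested genes with the same direction in both pigs was not computed, so this is not read as a result about the members.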

How the results depend on the processing

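Each member was recomputed under 15 alternatives. Of the 135 values 0 changed direction, 116 also kept their side of the threshold, 13 lost a call and 6 gained one. Student's test on log2(CPM + 1), a scale chosen here, called 0 members lower after adjustment and 7 at an unadjusted p under 0.05, and over all genes it called 502 lower in place of 3508. Bonferroni adjustment in edgeR, added after seeing the data, called 1 member lower, ELOVL4. Scaled by library size only, 1 member was higher, SMPD1, and the median of all tested genes was 0.24. With the replicate block ALOX12B was called (log2 fold change -1.20), as in DESeq2 with and without the block, in limma-voom and without the LGR5-high library of pig 95R, and it lay between -1.91 and -0.62 when a library was left out. No other member's call changed under the block. In the wider lists, with 9 genes higher and 26 lower, 15 were higher with library size only, where 5473 of all 15980 tested genes were higher. With the test on log2(CPM + 1), 2 were higher and 5 lower (9 and 22 at an unadjusted p under 0.05). Bonferroni adjustment in edgeR left 0 higher and 2 lower (9 and 30 at an unadjusted p under 0.05, and 9 higher in DESeq2). The block called 11 higher and 30 lower. The cause of these changes was not tested. ABCG1, at -0.02, was 0.20 with library size only, 0.07 with upper quartile scaling, 0.01 with at least 10 counts in every library, 0.03 with the replicate block in edgeR or DESeq2 and with limma-voom, 0.04 with the test on log2(CPM + 1), and from -0.39 to 0.46 with a library left out. With a library left out, ABCA1 ran from -0.78 to 0.24, SPTSSB from -0.06 to 0.23 and SPHK1 from -0.02 to 0.22.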

Other observations

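The genes on either side of the members in the RefSeq annotation of Sscrofa11.1 were read as a further description, chosen after the members' values were seen. Of 16 protein-coding neighbours that are not members, 14 were tested, and by edgeR's quasi-likelihood test 5 were higher and 3 lower in LGR5-high, beside 22.7% and 22% of all tested genes, so nothing is read from these counts. SH3BGRL2, next to ELOVL4, had 234 and 259 counts in LGR5-high and 921 and 1108 in LGR5-negative, and a log2 fold change of -2.24 (SE 0.141) beside -2.00 for ELOVL4. BRPF3, next to PNPLA1, had -1.12 beside -1.29. LOC100525835, next to ALOX12B, had -2.28, with 184 and 100 counts against 766 and 420. Other neighbours went the other way, among them APBB1 next to SMPD1 (1.82), ADAMTS17 next to CERS3 (1.85) and HES7 next to ALOXE3 (2.83, from 33 and 34 counts against 6 and 2). LOC110256962, which overlaps ABCA12 in the annotation, had at most 3 counts in any library.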
